A study of Mus musculus with 8 samples.

Results

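OCT4, the transcription factor encoded by Pou5f1, was mapped by CUT&RUN in mouse embryonic stem cells, and the stretches described here were called in hmC-Seal and in bisulfite libraries but in neither conventional library. The cells were of the male E14 line, given as strain C57BL/6J, grown without feeders in N2B27+2i medium, and no group had a treatment. The released DNA went into 3 preparations with 2 OCT4 libraries each, namely conventional libraries from 5 ng of DNA, hmC-Seal libraries from 30 ng, and bisulfite libraries, of which only methylated reads entered the peak calling. There were also 2 IgG libraries, 1 conventional and 1 bisulfite, which the deposited lists use as the background of fold enrichment and p-values. The hmC-Seal preparation had no IgG library of its own, and which of the 2 its lists used was not read here. Whether the hmC-Seal and bisulfite calls share a control was not tested. Entries of the 6 lists that overlapped by at least 1 bp were merged on chromosomes 1 to 19 and X of GRCm38. After 5 bins of 100 kb with 10 or more summits in any list were left out, 15578 stretches remained, and 1333 of them (8.56%) were members. The members were chosen by these calls: an entry of at least 1 hmC-Seal library and of at least 1 bisulfite library, and no entry of a conventional one. Calls, fold enrichment and q-values in these lists are therefore given as a description of the members and support nothing about them.

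OCT4 is a POU-domain factor that recognises an octamer in DNA, often beside a site for SOX2, and it holds embryonic stem cells in the pluripotent state. TET enzymes oxidise 5-methylcytosine to 5-hydroxymethylcytosine, which is rarer than its precursor and is found at many enhancers. The hmC-Seal reaction attaches a tag to 5-hydroxymethylcytosine so that fragments carrying it can be pulled down. Bisulfite treatment converts unmodified cytosine and leaves both modified forms, so it cannot tell methylation from hydroxymethylation. A conventional library takes all released fragments, whatever their cytosines carry. The reads behind a stretch called by both hmC-Seal and bisulfite were taken as modified DNA released with OCT4. The background of the pull-down and of the conversion was not measured here, and whether the 2 calls came from the same molecules or cells cannot be told apart in these pools.

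Of the 1333 members, 15 overlapped a promoter window, here the 250 bases before and the 50 after a gene start in the RefSeq table of GRCm38.p6, which holds 32817 windows of 27025 genes. The octamer was searched for on both strands as ATGCAAAT (ATTTGCAT on the other strand) and as ATGCTAAT (ATTAGCAT). One or the other was present in 8 of the 17 windows that members overlapped (47.1%, 95% Wilson interval 26.2% to 69.0%) and in 861 of all 32817 windows (2.62%). In all 8 it lay in the called part of the window. A match is a description of the letters, not a site or a cause. ATGCAAAT alone was in 5 of the 17 windows and in 1.74% of all windows, and ATGCTAAT in 4 of the 17 and in 0.920% of all. The called parts with an octamer are printed below with the octamers in capitals, because they show the letters that OCT4 is known for inside the called DNA, and the part beside Tut1 is printed as a member with calls in 3 libraries and no match. They lie at Rras (chr7:45017692-45017981, plus strand), Gm42808 (chr5:140549816-140549958, minus strand), Pipox (chr11:77894008-77894122, minus), Ints6 (chr14:62761197-62761341, minus), Liph (chr16:21995565-21995657, minus), 6430590A10Rik (chr10:103369206-103369335, minus), 4833407H14Rik (chr19:53460442-53460630, plus), Gm40989 (chr13:66752966-66753062, minus) and Tut1 (chr19:8953610-8953724, plus).
Rras: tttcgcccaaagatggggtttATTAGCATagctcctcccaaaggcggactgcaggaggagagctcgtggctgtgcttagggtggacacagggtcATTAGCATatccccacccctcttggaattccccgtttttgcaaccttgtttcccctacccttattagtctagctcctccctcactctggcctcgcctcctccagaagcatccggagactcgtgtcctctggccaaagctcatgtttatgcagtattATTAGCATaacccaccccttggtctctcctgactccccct
Gm42808: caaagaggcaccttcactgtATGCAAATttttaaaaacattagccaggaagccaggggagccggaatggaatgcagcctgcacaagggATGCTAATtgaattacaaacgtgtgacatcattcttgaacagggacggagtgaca
Pipox: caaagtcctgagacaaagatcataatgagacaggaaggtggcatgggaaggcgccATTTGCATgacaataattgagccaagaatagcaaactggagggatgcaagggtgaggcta
Ints6: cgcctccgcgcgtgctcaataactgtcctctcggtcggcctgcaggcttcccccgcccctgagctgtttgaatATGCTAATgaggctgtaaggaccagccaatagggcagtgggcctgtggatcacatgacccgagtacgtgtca
Liph: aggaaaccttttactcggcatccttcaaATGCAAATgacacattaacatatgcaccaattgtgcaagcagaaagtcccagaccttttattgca
6430590A10Rik: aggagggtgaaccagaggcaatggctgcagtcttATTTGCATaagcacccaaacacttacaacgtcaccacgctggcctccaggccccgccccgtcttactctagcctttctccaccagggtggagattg
4833407H14Rik: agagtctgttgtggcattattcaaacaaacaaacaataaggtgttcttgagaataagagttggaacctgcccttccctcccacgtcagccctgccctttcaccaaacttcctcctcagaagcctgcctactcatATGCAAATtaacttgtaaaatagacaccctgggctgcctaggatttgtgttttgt
Gm40989: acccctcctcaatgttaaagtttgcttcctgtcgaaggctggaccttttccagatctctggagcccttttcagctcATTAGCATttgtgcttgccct
Tut1: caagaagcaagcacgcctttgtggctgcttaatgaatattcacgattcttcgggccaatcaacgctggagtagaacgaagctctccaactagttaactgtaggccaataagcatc

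The Rras member was called in all 4 modified-base libraries, and its called part holds 3 copies of ATTAGCAT in 290 bases with 7 CpG. Its fold enrichment was 13.9 and 5.51 in hmC-Seal replicates 1 and 2, with 6.68 and 9.75 in bisulfite replicates 1 and 2. Rras encodes a GTPase of the Ras family. Gm42808, a long non-coding RNA gene, had 2 octamers, 1 of each form, in the called part, and its member was called in hmC-Seal replicates 1 and 2, with a fold of 11.4 and 5.19, and in bisulfite replicate 1, with 6.28. At Pipox, which encodes a peroxisomal oxidase, the fold was 12.7 in hmC-Seal replicate 1 and 4.71 and 6.74 in bisulfite replicates 1 and 2. Ints6, a subunit of the Integrator complex, had 9 CpG in its called part, and its member had a fold of 7.78 in hmC-Seal replicate 1 and 6.55 in bisulfite replicate 2. Liph, which encodes a lipase, had 1 CpG, with a fold of 10.6 in hmC-Seal replicate 1 and 7.84 in bisulfite replicate 1. The part beside Tut1, which encodes a uridylyltransferase, had 5 CpG and no octamer, with a fold of 14.5 and 7.78 in hmC-Seal replicates 1 and 2 and 7.22 in bisulfite replicate 1.

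Within each library, member windows were set beside the windows of its other stretches. In hmC-Seal replicate 1, 8 of 17 member windows (47.1%) and 32 of 71 other called windows (45.1%) held one, and in hmC-Seal replicate 2 these were 2 of 5 (40%) and 11 of 55 (20%). In bisulfite replicate 1 they were 6 of 12 (50.0%) and 4 of 8 (50.0%), and in bisulfite replicate 2 they were 4 of 9 (44.4%) and 6 of 9 (66.7%). The mean difference over the 4 libraries was -0.06 percentage points ± 17.30 (SD, n = 4), higher for members in 2 of them (two-sided exact sign-flip permutation test, p = 1.00, with 0.25 the smallest p that these differences allow, 1 of them being 0). The same member windows enter several libraries, so these differences are not independent and the p says nothing about the members. This search in promoter windows was chosen after the data were seen, since a GRCm38 genome was not used here for the members elsewhere. By class, 5 of 9 windows of stretches called in all 3 preparations (55.6%) and 31 of 105 windows of stretches called by hmC-Seal only (29.5%) held an octamer. The member count rests on hmC-Seal replicate 1 and on bisulfite replicate 1. Without the former 4 windows were overlapped and 2 held an octamer, and without the latter 9 were overlapped and 4 did. The median number of CpG was 7 in the 17 member windows and 7 in all windows. Added over the 17 windows, the called parts held 42 CpG in 2075 bases. This counts 80 bases at Wwtr1 and 15 at 1700019D03Rik again, since overlapping windows of these genes share them. CATTGT, 1 form of the core that SOX factors bind, was in 1 of the 17 windows, that of 1700019D03Rik, and in 12.6% of all windows. Other forms of this core were not searched for, so the count does not measure SOX sites in these windows.

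Across the genome, the members were split among all 9 sets of libraries that the rule allows. Of the 1333 members, 607 (45.5%) were called in 2 libraries, 474 (35.6%) in 3 and 252 (18.9%, 95% Wilson interval 16.9% to 21.1%) in all 4. The commonest sets after all 4 libraries were hmC-Seal replicate 1 with bisulfite replicate 2 (238 members) and hmC-Seal replicate 1 with both bisulfite libraries (232 members). Both hmC-Seal libraries called 435 members (32.6%) and both bisulfite libraries 543 (40.7%). hmC-Seal replicate 1 called 1092 members and hmC-Seal replicate 2 called 676, while bisulfite replicates 1 and 2 called 931 and 945. Without hmC-Seal replicate 1 the rule gave 675 members, and without hmC-Seal replicate 2 it gave 1092. Under a replicate block, with an hmC-Seal and a bisulfite library of the same replicate number required, it gave 978. Members made up 31.5% of the stretches of hmC-Seal replicate 1, 6.15% of those of hmC-Seal replicate 2, and 34.8% and 48.7% of those of bisulfite replicates 1 and 2.

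**Figure D1:**
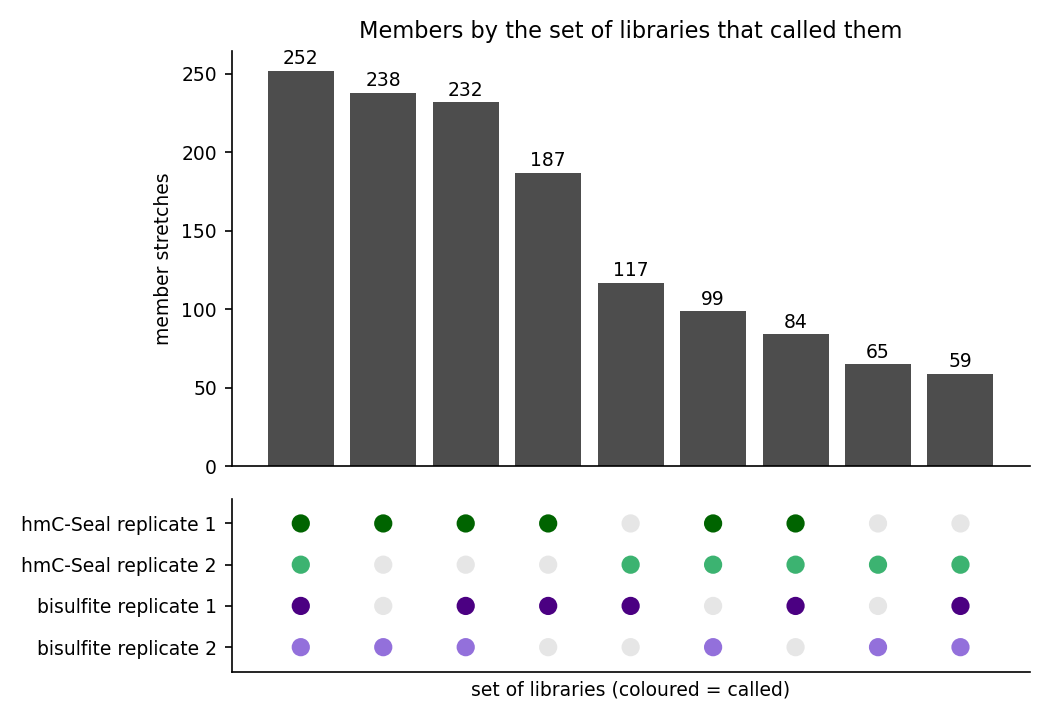
Number of members (bars) for each set of libraries that called them (coloured dots). The 252 members called in all 4 libraries are the largest set, and the sets with hmC-Seal replicate 1 hold more members than the same sets with hmC-Seal replicate 2 in its place.

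The members were short, with a median width of 145 bp and a range of 89 to 522 bp, and together they cover 217538 bp. Their median width was 126 bp when called in 2 libraries, 156 bp in 3 and 199 bp in all 4, with more entries merged in them. Stretches called in all 3 preparations had a median width of 242 bp. Within members, the summits of an hmC-Seal and a bisulfite library lay close together, with a median distance of 10.0 bp between hmC-Seal replicate 1 and bisulfite replicate 2 (821 members) and of 11 bp between hmC-Seal replicate 1 and bisulfite replicate 1 (755 members). The 2 bisulfite libraries stood 8.00 bp apart in the median (543 members) and the 2 hmC-Seal libraries 10.0 bp (435 members). Close summits follow in part from the rule, since the entries of a member overlap. Between 66.3% and 72.0% of the summits lay within 20 bp of each other in the 6 pairs of libraries.

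The edge of the rule was read in overlap, distance and q. The smallest overlap between an hmC-Seal and a bisulfite entry of a member was 24 bp and the median 102 bp, and 7 members had an overlap of less than 50% of the shorter entry. Only 2 stretches called by bisulfite alone lay within 100 bp of one called by hmC-Seal alone. The member nearest to a conventional entry, on chromosome 16 from 21702389 to 21702569, was 245 bp from it, and the next, on chromosome 11 from 62510991 to 62511255, was 292 bp from one. Within 1 kb of a conventional entry lay 6 members, within 10 kb 14 and within 100 kb 45, and the median gap was 3189899 bp. The 5 bins that were left out held no stretch that met the library rule, and no bin with a member had more than 8 summits of 1 library. The lowest −log10 q among members was 1.31 in both hmC-Seal libraries and 1.58 and 1.38 in bisulfite replicates 1 and 2. The median was 11.4 and 5.30 in hmC-Seal replicates 1 and 2, with 7.04 and 5.91 in bisulfite replicates 1 and 2. With a −log10 q of 3 or more required in the hmC-Seal and bisulfite lists, 1085 stretches met the rule.

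The fold enrichment at the best summit of a member, the authors' ratio to the local IgG background, had a median of 8.96 in hmC-Seal replicate 1 (range 1.52 to 34.4), 5.78 in hmC-Seal replicate 2 (1.51 to 18.8), 6.68 in bisulfite replicate 1 (1.3 to 36.4) and 6.72 in bisulfite replicate 2 (1.29 to 27.9). The lists are not normalised to one another, so these medians describe each library. Stretches called in all 3 preparations had higher medians in each of the 4 libraries, 13.9 and 6.92 in hmC-Seal replicates 1 and 2, with 9.05 and 8.87 in bisulfite replicates 1 and 2. Stretches called by hmC-Seal only had lower ones, 6.48 and 4.32, and so did those called by bisulfite only, 5.52 and 5.58. The members thus stood between the stretches of 1 preparation and those of all 3, an order that the rule itself may set and that was not tested. Among members, the median fold in hmC-Seal replicate 1 was 7.80 for those called in 2 libraries, 9.34 for 3 and 11.4 for 4.

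**Figure D2:**
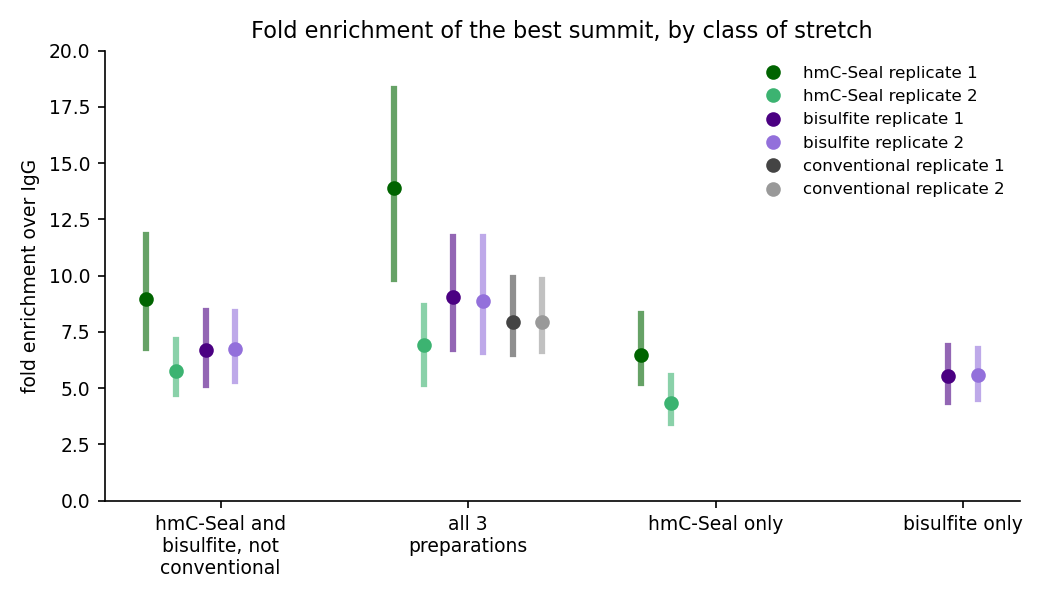
Median (dot) and quartiles (bar) of the fold enrichment over IgG at the best summit, by class of stretch and by library. Medians of members lie between 5.78 and 8.96, below those of stretches called in all 3 preparations in the same libraries.

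The top of each list was read beside the whole list. Of the 100 stretches of highest −log10 q, 37 of the hmC-Seal replicate 1 list were members, as were 17 of the hmC-Seal replicate 2 list. In bisulfite replicates 1 and 2 they were 39 and 50. Over the whole lists the members' shares were 31.5% and 6.15% in hmC-Seal and 34.8% and 48.7% in bisulfite, so 3 of the 4 counts were near the share of the list. Stretches called in all 3 preparations held 44 and 2 of the 100 in hmC-Seal replicates 1 and 2, with 18 and 32 in bisulfite replicates 1 and 2. Over the whole lists they were 201 of 3472 and 139 of 10988 in hmC-Seal replicates 1 and 2. In bisulfite replicates 1 and 2 they were 186 of 2675 and 191 of 1942. In hmC-Seal replicate 2, 81 of the 100 were called by hmC-Seal only, as were 10167 of the 10988 stretches of the whole list.

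The lists carry no read totals, and the depth behind a call was estimated from the fold enrichment and the p-value of each summit with the formula of MACS 2. This step was added with the values in view. Estimated coverage by the fragments used in calling was 0.348 and 0.303 in conventional replicates 1 and 2, and in hmC-Seal it was 0.717 for replicate 1 and 0.156 for replicate 2. In bisulfite it was 0.824 for replicate 1 and 0.887 for replicate 2. The best summit of a member rested on a median of 20 fragments in hmC-Seal replicate 1 and 7 in its replicate 2, and 18 in bisulfite replicate 1 and 19 in bisulfite replicate 2. In hmC-Seal replicate 2, 101 of the 641 members with an estimate (15.8%) rested on 4 fragments or fewer. Among stretches called by hmC-Seal only the share was 50.3% in the same library. At the genome background stood 37.5% and 29.0% of the members with an estimate in hmC-Seal replicates 1 and 2. In bisulfite replicates 1 and 2 these were 34.2% and 30.9%. The other members lay over a raised local background, of up to 37.0 and 118 in hmC-Seal and 123 and 84.0 in bisulfite replicates 1 and 2. For stretches called in all 3 preparations the shares were 30.6% and 33.8% in hmC-Seal and 30.7% and 30.2% in bisulfite.

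The smallest summit called in conventional replicates 1 and 2 rested on 8 and 7 fragments. Scaled to the coverage of conventional replicate 1, which is down for all but hmC-Seal replicate 2 and up for that library, the fragments of a member in bisulfite replicate 1 came to a median of 7.60 and those in bisulfite replicate 2 to 7.46, and 46.3% and 43.1% of the members reached 8. From hmC-Seal replicates 1 and 2 the scaled medians were 9.71 and 15.6, and 72.0% and 94.4% of the members reached 8. The lowest call in hmC-Seal replicate 2 rested on 3 fragments, and any call on 4 or more passes 8 once scaled up. Shares from hmC-Seal replicate 2 are therefore set by the scaling and say nothing about the stretches. For stretches called in all 3 preparations the shares were 98% and 95.4% from hmC-Seal replicates 1 and 2, and 75% and 75.7% from bisulfite replicates 1 and 2. The bisulfite libraries and hmC-Seal replicate 1 thus gave different answers, from fragments of the same calls that chose the members. A missing conventional call is no measure of absent binding on unmodified DNA, and the part of coverage in the class was not tested.

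Calls in the OCT4 libraries of the replicate that did not choose a stretch were read next. They are not independent of the choice in full. No preparation had more than 1 IgG library, hmC-Seal had none of its own, and the replicates share a background. The shares over all stretches also include stretches without a call in the preparation that is read, such as 1734 of replicate 1 called by bisulfite only, so part of any excess over them is set by the choice. When only the 3 lists of replicate 1 chose, 811 stretches were called by hmC-Seal and bisulfite and not by conventional replicate 1. Of these, 376 (46.4%, 95% Wilson interval 43.0% to 49.8%) were called in hmC-Seal replicate 2, where the share over all 5243 stretches of replicate 1 was 23.0%. In bisulfite replicate 2, 538 (66.3%, 63.0% to 69.5%) were called, against 25.6% over all. The 5243 stretches include 2518 called by hmC-Seal only and 1734 called by bisulfite only, so these shares are not like for like. Among stretches called by hmC-Seal only, 22.0% were called in hmC-Seal replicate 2, and among those called by bisulfite only, 18.7% in bisulfite replicate 2. Stretches called in all 3 preparations of replicate 1 stood at 70% in hmC-Seal and 92.3% in bisulfite. These differences were not tested. In conventional replicate 2, 57 (7.03%, 5.46% to 9.0%) were called, against 3.28% over all, and among the 130 stretches called in all 3 preparations of replicate 1 the share was 59.2%. Both modified-base libraries of replicate 2 called 292 of the 811 (36.0%, against 10.4% over all), and at least 1 of them called 622 (76.7%, against 38.1%).

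The reverse choice gave 509 stretches from replicate 2. Of these, 385 (75.6%, 71.7% to 79.2%) were called in hmC-Seal replicate 1, against 12.6% over all 12369 stretches of replicate 2. In bisulfite replicate 1, 342 (67.2%, 63.0% to 71.1%) were called, against 9.63%, and in conventional replicate 1, 34 (6.68%, 4.82% to 9.19%), against 1.27%. Of the 12369 stretches, 10371 were called by hmC-Seal only and had no bisulfite call in replicate 2. Only 1.94% of them were called in bisulfite replicate 1, so the gap in bisulfite is in large part set by the choice. Recurrence was above the share over all stretches in each of the 6 libraries, but the choice sets part of this, so nothing about the class is read from it. In the conventional library that did not choose it, 6.68% and 7.03% of the class were called. Stretches called in all 3 preparations of replicate 2 recurred more, at 98.1% in hmC-Seal replicate 1 and 93.2% in bisulfite replicate 1. Stretches called by only 1 preparation of replicate 2 recurred less, with 5.14% of the 10371 hmC-Seal stretches called in hmC-Seal replicate 1 and 39.6% of the 1296 bisulfite stretches in bisulfite replicate 1. The intervals cover counting error only, since stretches of the same libraries are not replicates, and differences between classes were not tested.

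**Figure D3:**
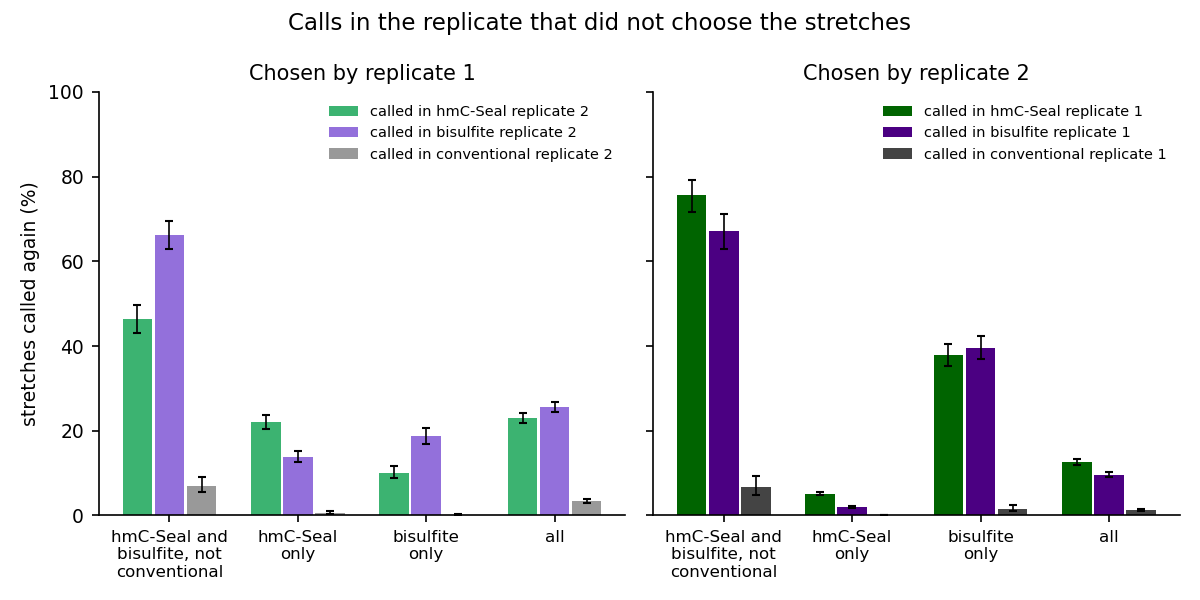
Percent of stretches chosen in 1 replicate (by class) that were called in each library of the other replicate, with 95% Wilson intervals. Stretches chosen by hmC-Seal and bisulfite recurred in 46.4% to 75.6% of cases in the modified-base libraries and in 7.03% and 6.68% in the conventional ones.

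Start positions were known for 17273 of the 21627 protein-coding genes, and none on chromosome 18, so the shares near starts are undercounts for members and for all stretches alike. The member inside Tbx3, for example, had its nearest known start 436500 bp away. Of the 1292 members on chromosomes with start positions, which leaves out 41 on chromosome 18, 104 (8.05%, 95% Wilson interval 6.69% to 9.66%) had their midpoint within 5 kb of a protein-coding start, 20 (1.55%) within 1 kb and 347 (26.9%, 24.5% to 29.3%) within 20 kb. Over all 15049 stretches of any library with a start distance, 7.50% lay within 5 kb, 1.50% within 1 kb and 23.3% within 20 kb. Inside a gene span lay 560 members (42.0%, 39.4% to 44.7%), against 43.9% of all stretches. Protein-coding spans held 446 members (33.5%, against 35.8% of all stretches) and spans of long non-coding RNA genes 114 (8.55%, against 8.42%). The share over all stretches lay inside the interval of the members for gene spans and for 5 kb, and below it for 20 kb.

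Compared within each library, members stood on either side of the other stretches. Within 5 kb of a start lay 8.22% of the members and 10.5% of the other stretches of hmC-Seal replicate 1, and 6.84% and 7.28% of those of hmC-Seal replicate 2. In bisulfite replicate 1 these were 8.23% and 6.00%, and in bisulfite replicate 2 they were 7.54% and 6.84%. The mean difference was 0.04 percentage points ± 1.92 (SD, n = 4), higher in 2 libraries and lower in 2 (two-sided exact sign-flip permutation test, p = 1.00, with 0.13 the smallest p possible). For gene spans the members stood at 42.7% against 47.9% in hmC-Seal replicate 1, 41.4% against 44.9% in hmC-Seal replicate 2, 41.5% against 36.9% in bisulfite replicate 1 and 42.6% against 38.6% in bisulfite replicate 2. The mean difference was -0.03 points ± 5.06 (SD, n = 4), by the same exact permutation test p = 1.00. In both measures the members were lower than the other hmC-Seal stretches and higher than the other bisulfite stretches. The rule puts every member in libraries of both preparations, so the 4 differences are not independent, and with opposite signs by preparation the p-values say nothing about the members.

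By chromosome, the members followed the stretches at large, with 104 on chromosome 1, where they were 9.03% of the stretches, and 34 on chromosome 19, where they were 8.74%. The lowest share was on chromosome X, where 49 of 846 stretches were members (5.79%). Adjacent members were a median of 1260 kb apart, and 26 adjacent pairs had a gap of at most 10 kb. Chromosome 3, with 6.75% of the members and 6.09% of all stretches, held 11 of these pairs and no other chromosome more than 3. Close pairs were not counted over all stretches, so nothing is called particular to the members.

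Platr10, a long non-coding RNA gene on chromosome 3 named as a pluripotency-associated transcript, held 3 members, the most of any such gene. The first, from 75650556 to 75650676, had calls in each of the 4 libraries and a fold of 9.56 and 6.69 in hmC-Seal replicates 1 and 2, with 6.25 and 5.80 in bisulfite replicates 1 and 2. The next, from 75650894 to 75651013, had the highest fold of the run in hmC-Seal replicate 1, 18.3, and 7.21 in bisulfite replicate 2. The last, from 75651815 to 75651953, had a fold of 11.2 in hmC-Seal replicate 1 and of 9.35 and 8.63 in bisulfite replicates 1 and 2. hmC-Seal replicate 2 called 1 of the 3. Another run of 3 members on chromosome 3, from 8001153 to 8006606, lay outside the annotated genes, 46266 bp from the long non-coding RNA gene 1700010I02Rik at its nearest. All 3 were called in all 4 libraries, with folds of 10.6, 8.96 and 12.3 in hmC-Seal replicate 1 and of 3.94, 5.09 and 6.00 in hmC-Seal replicate 2. In bisulfite replicate 1 they were 5.83, 4.71 and 7.22, and in bisulfite replicate 2 they were 5.12, 6.04 and 10.1. The last of the 3 was the strongest in each of the 4 libraries.

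Among genes of known roles, members were found most often beside pluripotency factors. Of 36 listed pluripotency factor genes, 11 (30.6%) had a member within 20 kb of the gene span, against 947 of 21627 protein-coding genes (4.38%). Signalling genes had 4 of 26 (15.4%), DNA methylation genes 2 of 16 (12.5%), imprinted genes 1 of 23 (4.35%) and lineage regulators, which are mostly silent in these cells, 1 of 33 (3.03%). Zfp42 is in the lists of pluripotency and of DNA methylation genes and counts in both through the same member, and the neighbours Dppa3 and Gdf3 count as 2 genes through the same 2 members. The median gene span was 8.19 kb for the pluripotency factors and 17.3 kb for all protein-coding genes. It was 11.2 kb for signalling, 55.9 kb for DNA methylation, 7.56 kb for lineage regulators and 30.7 kb for imprinted genes. The part of gene span in these shares was not tested. Within 5 kb the pluripotency factors had 8 genes with a member (22.2%, against 2.52% of all), and within 50 kb 12 (33.3%, against 7.80%). Without hmC-Seal replicate 1 the 20 kb count was 7 (19.4%, against 2.31% of all), and with the 4-library members alone it was 4 (11.1%, against 0.837%). Stretches called in all 3 preparations lay within 20 kb of 2 of the 36 genes (5.56%, against 0.874% of protein-coding genes), Pou5f1 itself and Etv5. Stretches called by hmC-Seal only lay within 20 kb of 17 of the 36 (47.2%, against 30.0%), and those called by bisulfite only of 4 (11.1%, against 5.38%). The counts are small and the genes were listed with earlier results known, so nothing is called particular to the list.

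**Figure D4:**
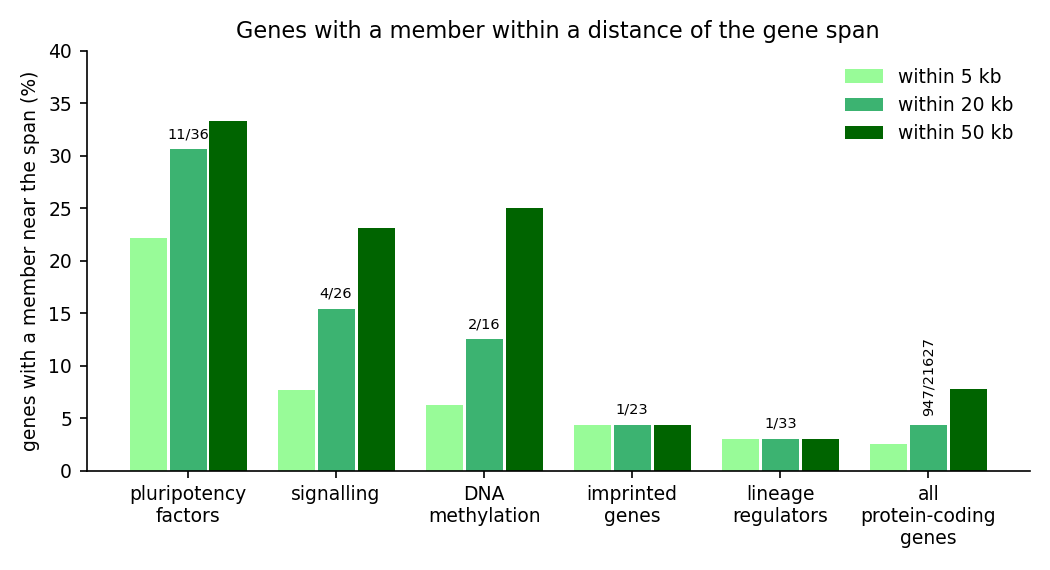
Percent of the genes of each list, and of all protein-coding genes, with a member within 5, 20 or 50 kb of the gene span, with the number of genes at 20 kb written above the bar. Pluripotency factors stand at 30.6% and all protein-coding genes at 4.38% at 20 kb.

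Sox2, which encodes the partner of OCT4 on joint sites, had 2 members past its 3′ end, both inside the overlapping gene Sox2ot. The nearer, 1528 bp away on chromosome 3 from 34653989 to 34654120, had calls in each of the 4 libraries and a fold of 19.1 and 5.19 in hmC-Seal replicates 1 and 2, with 8.16 and 8.46 in bisulfite replicates 1 and 2. These calls rested on an estimated 36 and 5 fragments in hmC-Seal and on 16 and 18 in bisulfite, all at the genome background. The farther, 16088 bp away from 34668549 to 34668665, had a fold of 7.29 and 6.05 in hmC-Seal replicates 1 and 2 and of 6.75 in bisulfite replicate 1.

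Dppa3, whose protein shields 5-methylcytosine from oxidation in the early embryo, lay 1684 bp from a member called in all 4 libraries, on chromosome 6 from 122624610 to 122624740. Its fold was 14.7 and 7.87 in hmC-Seal replicates 1 and 2, with 13.2 and 11.5 in bisulfite replicates 1 and 2. It had the highest bisulfite folds of the members beside listed genes that were called in all 4 libraries. The neighbouring gene Gdf3, which encodes a ligand of the TGF-β family, held a weaker member inside its span, from 122608574 to 122608677, with a fold of 6.97 in hmC-Seal replicate 1 and 3.94 in bisulfite replicate 1.

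Tfcp2l1, a factor of the naive state, had a member 2243 bp before its start, on chromosome 1 from 118625458 to 118625680, with a fold of 13.4 in hmC-Seal replicate 1 and 5.80 and 8.03 in bisulfite replicates 1 and 2. A further one inside the gene, from 118648114 to 118648275, had 10.4 in hmC-Seal replicate 1 and 7.59 in bisulfite replicate 2. hmC-Seal replicate 2 called neither. Utf1, a chromatin factor of undifferentiated cells, had a member 505 bp past its end, where hmC-Seal replicates 1 and 2 rested on 21 and 8 fragments and bisulfite replicate 2 on 18. Klf2, a Krüppel-like factor of the naive state, had one 2734 bp before its start and another 12779 bp past its end, on chromosome 8 from 72334433 to 72334589, with 8.83 in hmC-Seal replicate 1 and 6.75 in bisulfite replicate 1, though Eps15l1 was the nearer gene there at 6401 bp. The member before Klf2 had folds of 4.38 in hmC-Seal replicate 1 and 3.92 and 4.47 in bisulfite replicates 1 and 2. It lay over a raised background, of 2.00 in hmC-Seal replicate 1 and 4.00 in bisulfite replicate 2, where the genome level was 0.580 and 0.631.

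Further members lay beside other genes of the pluripotency list. Jarid2, a subunit of the Polycomb complex PRC2, held one on chromosome 13 from 44751819 to 44752005, with a fold of 10.6 and 4.72 in hmC-Seal replicates 1 and 2 and 5.83 in bisulfite replicate 2. Mycn, of the MYC family, had one 8683 bp past its end, on chromosome 12 from 12927241 to 12927410, with 17.8 in hmC-Seal replicate 1 and 12.4 and 6.90 in bisulfite replicates 1 and 2. Trim28, a corepressor of zinc finger proteins, lay 9631 bp from a member called in all 4 libraries, on chromosome 7 from 13014289 to 13014521. Its fold was 8.65 and 5.14 in hmC-Seal replicates 1 and 2, with 8.55 and 6.19 in bisulfite replicates 1 and 2, and Zbtb45 was the nearer gene at 4242 bp. Zfp42, a marker of the naive state, had a member 13780 bp before its start, with 5.76 and 3.94 in hmC-Seal replicates 1 and 2 and 5.14 in bisulfite replicate 1. In Tbx3, a T-box factor, a member from 119679932 to 119680093 on chromosome 5 had 5.36 in hmC-Seal replicate 1 and 5.52 in bisulfite replicate 1.

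Genes of the signalling list had 4 members within 20 kb. Lifr, which encodes the receptor of the cytokine LIF that supports self-renewal, held one called in all 4 libraries, on chromosome 15 from 7115806 to 7115940. Its fold was 17.5 and 9.51 in hmC-Seal replicates 1 and 2, with 8.64 and 8.03 in bisulfite replicates 1 and 2. Id3, a target of BMP, had one 1414 bp past its end, on chromosome 4 from 136146806 to 136147110, with 12.5 in hmC-Seal replicate 1 and 9.34 and 7.38 in bisulfite replicates 1 and 2. Lefty1, an inhibitor of Nodal, lay 10008 bp from a member inside the gene Gm39715, with 10.4 in hmC-Seal replicate 1 and 6.28 in bisulfite replicate 2. Tcf7l1, a repressor of WNT targets, lay 8391 bp from one with 5.17 in hmC-Seal replicate 2 and 5.83 in bisulfite replicate 2, and Tgoln1 was the nearer gene at 885 bp.

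Tet2, which encodes an enzyme that makes 5-hydroxymethylcytosine, held a member called in all 4 libraries, on chromosome 3 from 133524641 to 133525114. Its fold was 14.3 and 3.94 in hmC-Seal replicates 1 and 2, with 7.07 and 8.68 in bisulfite replicates 1 and 2, and the value of hmC-Seal replicate 2 rested on 4 fragments. The imprinted gene Grb10, an adaptor of growth factor receptors, held one on chromosome 11 from 11941353 to 11941646, with 8.83 and 7.75 in hmC-Seal replicates 1 and 2, with 10.5 and 6.72 in bisulfite replicates 1 and 2. Meis2, a homeobox regulator of later lineages, held one with 10.4 in hmC-Seal replicate 1 and 8.03 in bisulfite replicate 2.

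**Figure D5:**
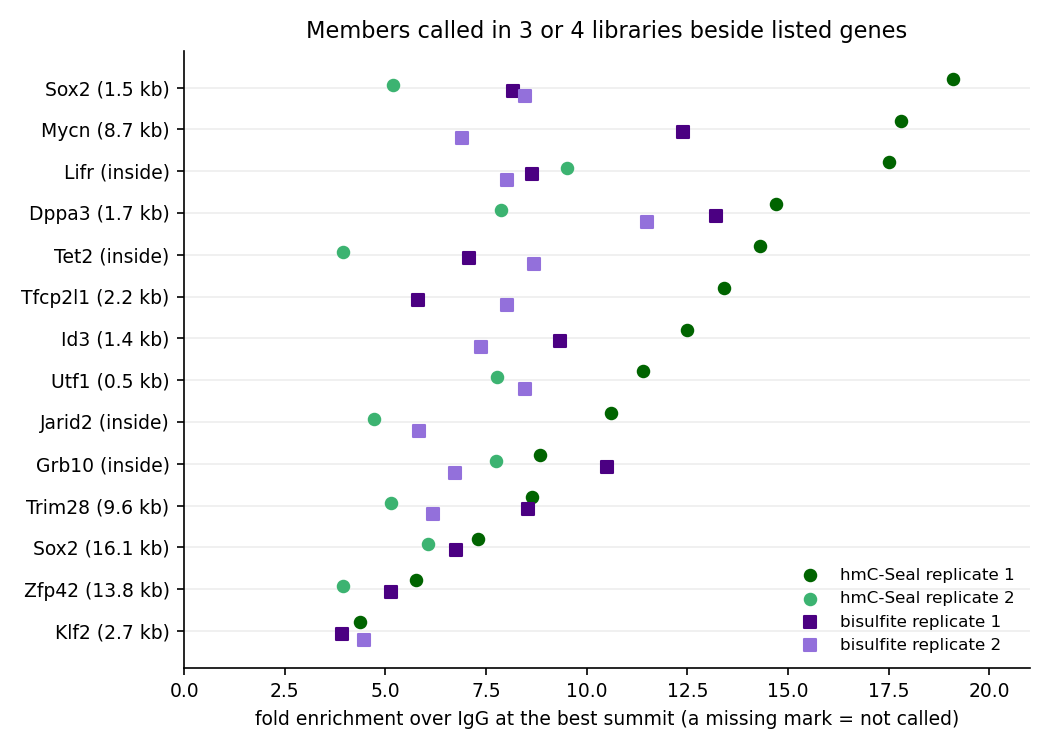
Fold enrichment over IgG in each library (marks) for members called in 3 or 4 libraries within 20 kb of a listed gene, with the distance to the gene span in parentheses. The values of hmC-Seal replicate 1 range from 4.38 beside Klf2 to 19.1 beside Sox2.

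Of the 252 members called in all 4 libraries, the 10 whose lowest standing among the 4 lists was highest lay mostly far from protein-coding genes. The best, in the top 1.57% of every one of the 4 lists, was on chromosome 11 from 30491973 to 30492213, 13779 bp from Acyp2, with a fold of 24.8 and 14.1 in hmC-Seal replicates 1 and 2, with 21.7 and 23.5 in bisulfite replicates 1 and 2. The next was inside the long non-coding RNA gene Gm33176, on chromosome 1 from 35944428 to 35944641, with 24.2 and 16.4 in hmC-Seal and 18.5 and 19.8 in bisulfite replicates 1 and 2. One on chromosome 4 from 15243450 to 15243887, 21933 bp from Tmem64, had 31.5 and 14.6 in hmC-Seal and 16.8 and 20.3 in bisulfite replicates 1 and 2, the highest fold of these 252 members in hmC-Seal replicate 1. They were picked by these values, which are given as a description.

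On chromosome X, a member from 115245064 to 115245209 had the highest folds of the 252 in both bisulfite libraries, 36.4 and 27.9 in replicates 1 and 2, with 28.8 and 11.4 in hmC-Seal replicates 1 and 2. It lay 263679 bp from the nearest protein-coding gene of the table. The highest fold of the 252 in hmC-Seal replicate 2, 17.7, was on chromosome 6 from 60480738 to 60480869, 31053 bp from the long non-coding RNA gene Gm38823. It had 16.5 in hmC-Seal replicate 1 and 10.9 and 11.5 in bisulfite replicates 1 and 2. Its background stood above the genome level in each library, at 2.00 and 0.812 in hmC-Seal and 3.00 in each bisulfite library. A member inside Galnt17, which encodes a glycosyltransferase, on chromosome 5 from 131177277 to 131177459, had 28.8 and 9.51 in hmC-Seal and 15.7 and 18.5 in bisulfite replicates 1 and 2, at the genome background throughout. Another lay inside the long non-coding RNA gene Gm47715, on chromosome 10 from 25029517 to 25029647, with 17.9 and 11.2 in hmC-Seal and 19.4 and 14.4 in bisulfite replicates 1 and 2. The remaining 3 of the 10, on chromosomes 3, 9 and 10, lay outside gene spans and more than 100 kb from the nearest protein-coding gene.

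Within 1 kb of a protein-coding start, the 10 members of highest −log10 q included those at Pipox, Tut1, Rras and Liph described with their sequences. At Dido1, which encodes a PHD finger protein, a member 762 bp from the start had a fold of 17.9 and 7.87 in hmC-Seal replicates 1 and 2 and of 10.1 in bisulfite replicate 2. Beside Prrc2a, one 611 bp from the start had 16.0 in hmC-Seal replicate 1 and 8.16 and 7.59 in bisulfite replicates 1 and 2. Beside Cyb5r1, which encodes a reductase, a member 635 bp from the start was called in all 4 libraries, with 12.4 and 6.92 in hmC-Seal and 12.9 and 14.6 in bisulfite replicates 1 and 2. At Stx18, which encodes a syntaxin, hmC-Seal replicate 2 had 9.12 and bisulfite replicates 1 and 2 had 7.31 and 6.46. The 2 others, at Rex1bd and 1700019D03Rik, were each called in both hmC-Seal libraries and in 1 bisulfite library.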

How the data were processed

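The deposited peak lists of 6 OCT4 CUT&RUN libraries were read, in GRCm38 coordinates. The authors called peaks with MACS 2 and deposited for each summit a score, the fold enrichment over the local IgG background as a ratio, and −log10 p and −log10 q. Read totals were not used here, and depth was taken from coverage estimated from fold and p-value. The recovery of fragments per summit was tested on simulated lists, the coverage itself was not. Entries were merged, bins removed and classes formed in Python 3.11.15 with pandas 2.3.3, numpy 2.4.6 and scipy 1.17.1, and plots were drawn with matplotlib 3.10.9. Gene spans and promoter windows came from RefSeq of GRCm38.p6, without promoter windows on chromosome 18. Members and gene lists were chosen with earlier results of these data known. Shares were compared within libraries by exact sign-flip permutation tests. Alternatives covered thresholds, merging, bins and leaving out each library. A sequence search at all members was not run, since the genome sequence at hand was of another build.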

Additional observations from a re-analysis of the deposited data

Results flagged for a closer look

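Stretches on sequences other than chromosomes 1 to 19 and X were not part of the comparisons. There, 8 of 375 stretches (2.13%, against 8.56% on the chromosomes used) were called by hmC-Seal and bisulfite and by no conventional library. Of these, 5 lay on chromosome Y, 2 on an unplaced contig and 1 on an unlocalised contig of chromosome 4. They are named because calls of the same kind appeared in data that the comparisons left aside, at a lower share. The IgG level enters the fold enrichment, the p-values and the calls, and separate IgG calls were not used here.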

How the results depend on the processing

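Of 79 alternatives, 10 moved a value by more than the limit set, which was 1.5 times for a count and the 95% interval for a share. The other 69 stayed within it, among them 930 and 944 members without bisulfite replicates 2 and 1, and 29.4% of promoter windows, against 47.1%, with ATGCAAAT alone. The share of members called in all 4 libraries, 18.9%, was 15.9% with a −log10 q of 3 or more in all lists and 15.6% with that limit in the hmC-Seal and bisulfite lists only. Under the replicate block, which requires the same replicate number, it was 25.8% of 978 members. It was 16.5% without entries of hmC-Seal replicate 2 on 4 or fewer fragments, an alternative chosen after seeing the data. Leaving out each library in turn gave between 675 and 1399 members, lowest without hmC-Seal replicate 1. The share near protein-coding starts was 1.55% within 1 kb and 26.9% within 20 kb. Pluripotency factor genes with a member within 20 kb numbered between 7 and 13 on leaving out each library, lowest without hmC-Seal replicate 1, and 4 with members of all 4 libraries alone. The alternatives for these genes and for the octamer were chosen after seeing the data. Recurrence in both modified-base libraries of replicate 2 was 39.6% with a −log10 q of 3 or more in replicate 1, against 36.0%. The planned search of 300 bp windows at all members was not run, since the genome sequence at hand was of another build.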

Other observations

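With 2 libraries per preparation, the smallest p of a test across the 4 modified-base libraries was 0.13, and 0.25 for the octamer, above any usual threshold. Replicates of 1 cell line do not cover differences between cultures. hmC-Seal replicate 2 had the lowest estimated coverage, 0.156, and the most stretches, 10988, so classes depend on how much each list called. The class is set by the absence of a conventional call in libraries with lower coverage than hmC-Seal replicate 1 and the bisulfite libraries. Promoter windows covered 15 members only, and sequence elsewhere was not read.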
